A study of Homo sapiens with 40 samples.

Results

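The zinc finger cluster of 7q11.21 was described here by 10 genes among the 62486 of the count table: ZNF727, ZNF735, ZNF679, ZNF736, ZNF680, ZNF107, ZNF138, ZNF273, ZNF117 and ZNF92, in this order along chromosome 7. A row of the table was taken as a member when its Ensembl identifier paired with one of these symbols, and all 10 were found. To these were added the peaks of 5 ChIP-seq targets and the Hi-C compartment bins of a 1.5 Mb region, chr7:63500000-65000000 on GRCh37. The cluster was chosen by the RNA-seq difference between the genotypes, so the RNA values of its members are given as a description, with no p-value.

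The series compared control (CT) A549 cells, an established line from a human lung adenocarcinoma, with A549 cells whose SETDB1 gene had been disrupted with CRISPR/Cas9 from the PX458 plasmid (KO). RNA-seq had 3 libraries per genotype, Hi-C had 2, and ChIP-seq had 2 per genotype for each of CTCF, H3K4me3, H3K9me3, H3K27ac and H3K27me3. Whether the KO cells are 1 clone or a pool, and whether the control cells received the plasmid, is not given in the labels. The labels also do not say that libraries came from separate cultures, so p-values measure only the spread between these samples.

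Most genes of this cluster encode KRAB zinc finger proteins, transcription factors whose fingers read DNA and whose KRAB domain recruits the scaffold protein TRIM28, also called KAP1. TRIM28 brings in SETDB1, the methyltransferase that places H3K9me3, a histone mark of repressed chromatin. Clusters of zinc finger genes are themselves known to carry H3K9me3, placed in part through ZNF274, a zinc finger protein that binds the 3′ ends of such genes.

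The sequences just before the transcription starts were alike for some members and not for others. RefSeq's promoter table (GRCh38.p14) matched 10 of 10 members with 11 entries, as ZNF273 has 2 starts. The 100 bases before the start are printed 5′ to 3′ on the gene's strand for 8 entries, with the word CCAATCAG in capitals. This word holds the CCAAT box, the motif bound by NF-Y. The entries of ZNF735, ZNF117 and ZNF273 start 1 are not printed and hold no CCAATCAG. The peaks reported here are on GRCh37, and positions were not compared between the builds.
ZNF727 (chr7:64045334-64045433, plus strand): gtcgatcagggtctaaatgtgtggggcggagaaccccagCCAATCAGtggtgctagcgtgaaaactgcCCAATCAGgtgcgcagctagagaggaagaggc
ZNF736 (chr7:64313861-64313960, plus strand): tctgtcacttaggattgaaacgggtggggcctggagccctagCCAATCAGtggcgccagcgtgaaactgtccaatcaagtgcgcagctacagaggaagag
ZNF679 (chr7:64228374-64228473, plus strand): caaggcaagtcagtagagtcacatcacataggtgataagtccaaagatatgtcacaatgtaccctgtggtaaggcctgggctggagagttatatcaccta
ZNF680 (chr7:64563072-64563171, minus strand): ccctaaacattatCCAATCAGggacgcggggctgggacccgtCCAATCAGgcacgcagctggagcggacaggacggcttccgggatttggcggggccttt
ZNF107 (chr7:64666033-64666132, plus strand): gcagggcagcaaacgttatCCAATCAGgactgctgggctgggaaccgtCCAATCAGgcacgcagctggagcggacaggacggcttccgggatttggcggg
ZNF138 (chr7:64794328-64794427, plus strand): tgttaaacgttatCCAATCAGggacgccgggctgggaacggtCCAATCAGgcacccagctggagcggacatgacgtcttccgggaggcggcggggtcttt
ZNF273 start 2 (chr7:64903173-64903272, plus strand): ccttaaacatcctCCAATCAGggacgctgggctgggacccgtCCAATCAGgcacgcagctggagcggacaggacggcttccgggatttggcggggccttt
ZNF92 (chr7:65373755-65373854, plus strand): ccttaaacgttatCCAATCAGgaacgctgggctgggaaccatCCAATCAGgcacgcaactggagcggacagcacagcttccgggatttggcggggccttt

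ZNF680, ZNF107, ZNF138, ZNF92 and the ZNF273 start shown share a layout with 2 copies of CCAATCAG, and all 5 genes share the words CCAATCAGGCAC and CTGGAGCGGACA. The 2 words were picked from those that most members hold, so their rarity elsewhere is no test. They occur in 24 (0.0683%) and 11 (0.0313%) of the 35116 promoters of the table, members included. Of these promoters, 12 and 5 belong to chromosome 19 ZNF genes. The ZNF680 stretch was 96% identical to that of ZNF273 start 2 and 91% identical to that of ZNF92. ZNF727 and ZNF736 form another pair, with 77.1% identity to each other and 51.8% and 50.9% to ZNF680. ZNF679, ZNF735, ZNF117 and ZNF273 start 1 were at most 53.1% identical to any other member entry. Within 250 bases before the start, on both strands, CCAATCAG was found in 7 of 11 member entries, against 3.81% of all promoters and 21.8% of 261 promoters of chromosome 19 ZNF genes. At least 2 copies were found in 6 of 11 entries, against 0.47% and 7.66%. CCAATCAG was not one of the words planned, so these shares are a description only. The shorter word CCAAT, which lies inside CCAATCAG, was found in 9 of 11 entries and 32% of all promoters, GGGCGG in 4 of 11 and 42.6%, and TATAAA in 0 of 11 and 10.7%. ZNF679, which has no CCAATCAG, had no CG dinucleotide in its 250 bases, where ZNF727 had 6 and ZNF680 had 12.

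RNA-seq libraries held 18065062 to 48364919 counts, and edgeR's quasi-likelihood test was applied to 17767 genes. The targeted transcript, SETDB1, was measured at 37.5, 39.6 and 38.7 CPM (CPM is a count scaled to library size, here with TMM factors) in control and at 23.4, 21.2 and 21.1 CPM in KO. Its log2 fold change was -0.82 (SE 0.060, edgeR adjusted p 1.7e-12), and the genotypes did not overlap. The 11 A549 and epithelial markers listed for the line were all detected. Their summed levels were 14418 to 15257 CPM in control and 18872 to 19860 CPM in KO, but single markers moved both ways. At an adjusted p under 0.05, 8 were higher and 3 lower, where 32.8% and 30% of all genes tested were. On average KRT8 rose from 2271 to 6594 CPM. AKR1B10 fell from 4845 to 2642 CPM, AKR1C1 from 626 to 215 CPM and NQO1 from 1627 to 1475 CPM. Of 11 markers of other cell types, 10 were in the table and only 2 had counts enough to be tested. Their summed level was 3.48 to 3.65 CPM in control and 8.29 to 9.41 CPM in KO, of which the endothelial gene CDH5 gave 0.289 and 4.53 CPM on average. The fibroblast genes COL1A1 and LUM gave 3.1 and 0.088 CPM in control and 3.83 and 0.226 CPM in KO on average. The blood cell gene CD3E and the fibroblast genes COL1A2 and DCN were at 0 in every library. The part of these levels in the results was not tested.

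In control cells the first 4 genes of the cluster had next to no counts, and the other 6 were measured at means of 1.39 to 28.1 CPM. In KO cells ZNF727, ZNF736 and ZNF679 were read in every library, ZNF117 and ZNF680 were well above their control levels, and ZNF107 and ZNF138 were moderately above. ZNF273 and ZNF92 overlapped between genotypes, and ZNF735 had no count in any library. Of the 9 members tested, 7 were higher in KO and 0 lower at an adjusted p under 0.05, where 32.8% of all genes tested were higher, 30% lower and 62.8% either. The same 7 had KO libraries all above the control libraries, as had 34.1% of all genes. Their contrast chose the cluster, so nothing is read from these counts. In bulk RNA, more cells carrying a transcript and more transcript per cell cannot be told apart.

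ZNF727 (ENSG00000214652), the first gene in order, had 0 counts in all 3 control libraries and 2128, 4405 and 1901 counts in the KO libraries. The KO levels were 92.9, 89.4 and 84.7 CPM (89.0 ± 4.11, SD, n = 3). Folds and lower bounds were taken from the counts pooled over the 3 libraries of a genotype and scaled to their summed library sizes, so they can differ a little from a ratio of mean CPM. Against a floor of 3 counts over the 3 control libraries, 0.0424 CPM, ZNF727 was at least 2102-fold higher in KO.

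ZNF735 (ENSG00000223614), the next gene, was at 0 in the 6 libraries. The 0 counts allow up to 0.0424 CPM in control. ZNF679 (ENSG00000197123) had 0 control counts and 41, 110 and 43 KO counts, or 1.79, 2.23 and 1.92 CPM (1.98 ± 0.228, SD, n = 3). Its pooled KO counts were at least 48.4-fold higher against the same floor. Levels are not set against each other between genes, since CPM is not corrected for gene length.

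ZNF736 (ENSG00000234444), whose promoter stretch is the one most like that of ZNF727, had 1 count in each control library. Its levels were 0.0425, 0.0552 and 0.0344 CPM in control and 36.4, 33.6 and 38.1 CPM in KO, from 833, 1657 and 855 counts. The ratio of KO to control was 834, with a counting interval of 285 to 4045. Neither ZNF727 nor ZNF736 varied much among KO libraries, with SDs of 4.11 CPM and 2.26 CPM.

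ZNF680 (ENSG00000173041) is the first gene in order with a clear control level. It was at 14.4, 13.7 and 13.3 CPM in control and 38.9, 37.6 and 38.2 CPM in KO, a log2 fold change of 1.47 (SE 0.063), or 2.77-fold. Its neighbour ZNF107 (ENSG00000196247) was at 19.1, 17.3 and 17.2 CPM in control and 32, 27 and 26.6 CPM in KO (1.58-fold, log2 0.67, SE 0.073). ZNF138 (ENSG00000197008) was at 7.99, 7.18 and 7.49 CPM and at 12.8, 10.7 and 9.36 CPM (1.44-fold, log2 0.53, SE 0.10). The KO levels of these 3 genes lay above their control levels in every library, and the ratio between the genotypes went down from ZNF680 to ZNF138.

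ZNF273 (ENSG00000198039), whose start 2 carries nearly the same stretch as ZNF680, was at 7.73, 7.62 and 8.62 CPM in control and 7.99, 8.14 and 8.56 CPM in KO. Its log2 fold change was 0.03 (SE 0.092). ZNF92 (ENSG00000146757), the last gene in order, was at 29.7, 26.5 and 28.0 CPM in control and 28.2, 23.8 and 26.5 CPM in KO, a log2 fold change of -0.12 (SE 0.067). Genes with the shared promoter layout thus included ZNF680 at 1.47 and ZNF92 at -0.12 on the log2 scale. Under upper quartile scaling the value was -0.01 for ZNF273 and -0.15 for ZNF92.

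ZNF117 (ENSG00000152926) was at 1.44, 1.44 and 1.31 CPM in control and 15.8, 15.6 and 15.4 CPM in KO. The fold over pooled counts was 11.3 (log2 3.49, SE 0.11), with an SD of 0.215 CPM over the 3 KO libraries. ERV3-1, an endogenous retrovirus gene that RefSeq places beside ZNF117 and joins with it in a readthrough gene, rose from 3.02, 3.42 and 3.78 CPM to 12.5, 10.8 and 10.4 CPM. Its log2 fold change was 1.70 (SE 0.11, edgeR adjusted p 1.5e-13). How counts of overlapping genes were assigned is not given in the sources used here, so reads of ZNF117 and ERV3-1 cannot be told apart. The same holds for paralogs: RefSeq lists 76 genes from the first to the last member, of which 43 are pseudogenes and 13 are protein coding.

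**Figure D1:**
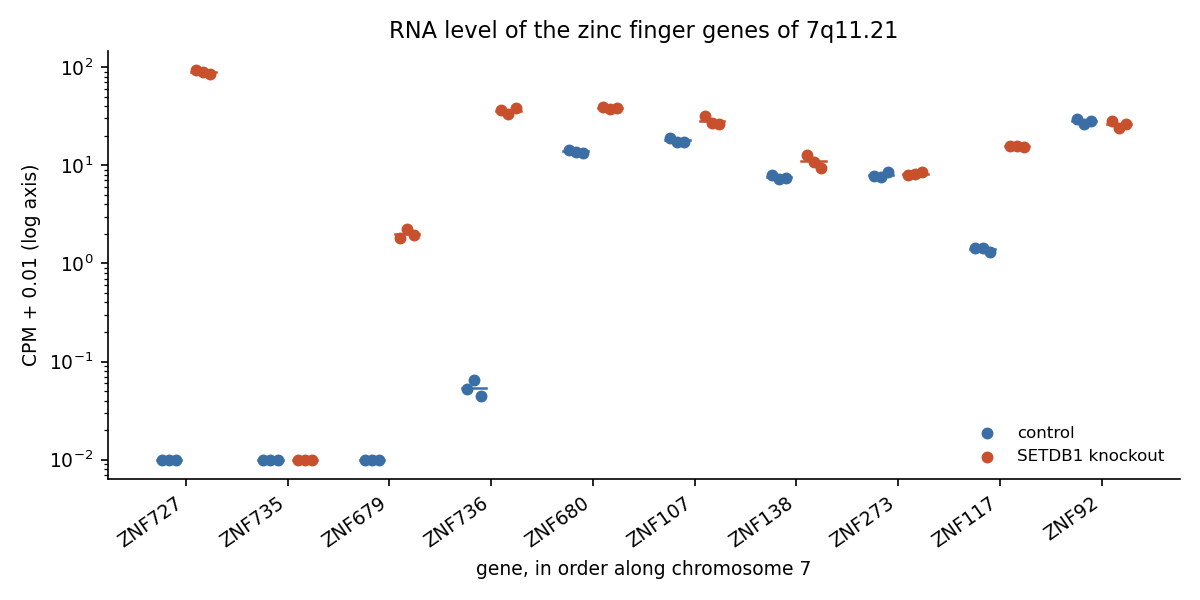
RNA level of each member in CPM plus 0.01 on a log axis, by gene in order along chromosome 7. Points are libraries (3 per genotype) and short lines are means. ZNF727, ZNF735 and ZNF679 sit at the 0.01 offset in control, where they had 0 counts, and ZNF735 also in KO, while the points of ZNF273 and of ZNF92 overlap between genotypes.

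Over the 9 tested members the median log2 fold change was 1.47, again 1.47 with ZNF727 and ZNF679 at their lower bounds, beside 0 over all genes tested. The same contrast chose the cluster, so the members' median is a description and nothing is read from it. ZNF727, ZNF679 and ZNF736, with 0, 0 and 3 control counts in all, passed the filter on low counts only through their KO libraries. The other 765 tested genes of chromosome 7 had a median of 0.05, with 280 higher and 197 lower. ZNF genes of chromosome 19 had a median of 1.76 over 227 genes, 211 of them higher and 4 lower in KO. ZNF genes of other chromosomes, the members left out, had a median of 0.17 over 207 genes, 102 higher and 33 lower. The 3 genes whose log2 CPM over the 6 libraries lay nearest to that of ZNF727 were ZNF320, ZNF888 and ZNF486, all of chromosome 19, at Euclidean distances of 0.592, 0.633 and 0.974. With 6 libraries in 2 groups, nearness mainly says that these genes had nearly no control counts and similar KO levels.

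A list of 20 other genes was set beside the members, 19 of them on either side of the cluster and 1, ERV3-1, within it. The 19 lay 3 to 183 gene entries from the cluster in RefSeq's order, so many are not close neighbours. Of 19 tested, 11 (57.9%) were higher and 2 (10.5%) lower, beside 32.8% and 30% over all genes tested. The 2 were VKORC1L1 and TYW1, at -0.21 and -0.14 on the log2 scale. Another 6 did not pass the test, and the median log2 fold change was 0.30. The 5 largest changes were those of the 4 zinc finger genes of the list and ERV3-1. ZNF722, which RefSeq places 3 gene entries before ZNF727, had 0 control counts and 9.82, 10.6 and 9.27 CPM in KO (at least 239-fold higher over pooled counts). Much farther out in RefSeq's order were ZNF716, ZNF479 and ZNF713, at 77, 109 and 183 gene entries before the cluster. Gene entries give neither the distance in bases nor the chromosome arm, and neither was compared here. The changes of ZNF716, ZNF479 and ZNF713 are therefore not read as part of the same locus. ZNF479 had 0 control counts and 3.84, 4.28 and 4.14 CPM in KO (at least 97.7-fold higher over pooled counts). ZNF716 had 0, 0 and 1 control counts and 9.82, 9.25 and 8.96 CPM in KO, a ratio of 660 with a counting interval of 118 to 26081. ZNF722, ZNF479 and ZNF716 passed the filter on low counts only through their KO libraries. Once tested, they could hardly be called other than higher, and they are among the 11 higher genes of the list. ZNF713 rose from 1.82 ± 0.149 to 4.85 ± 0.272 CPM (SD, n = 3; log2 1.42, SE 0.14, edgeR adjusted p 8.6e-10). No gene on the list without a zinc finger name, ERV3-1 aside, had a log2 fold change beyond 0.39 in either direction. GUSB, the lysosomal enzyme beta-glucuronidase, was at 0.37 and SBDS, a ribosome assembly factor, at 0.39.

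**Figure D2:**
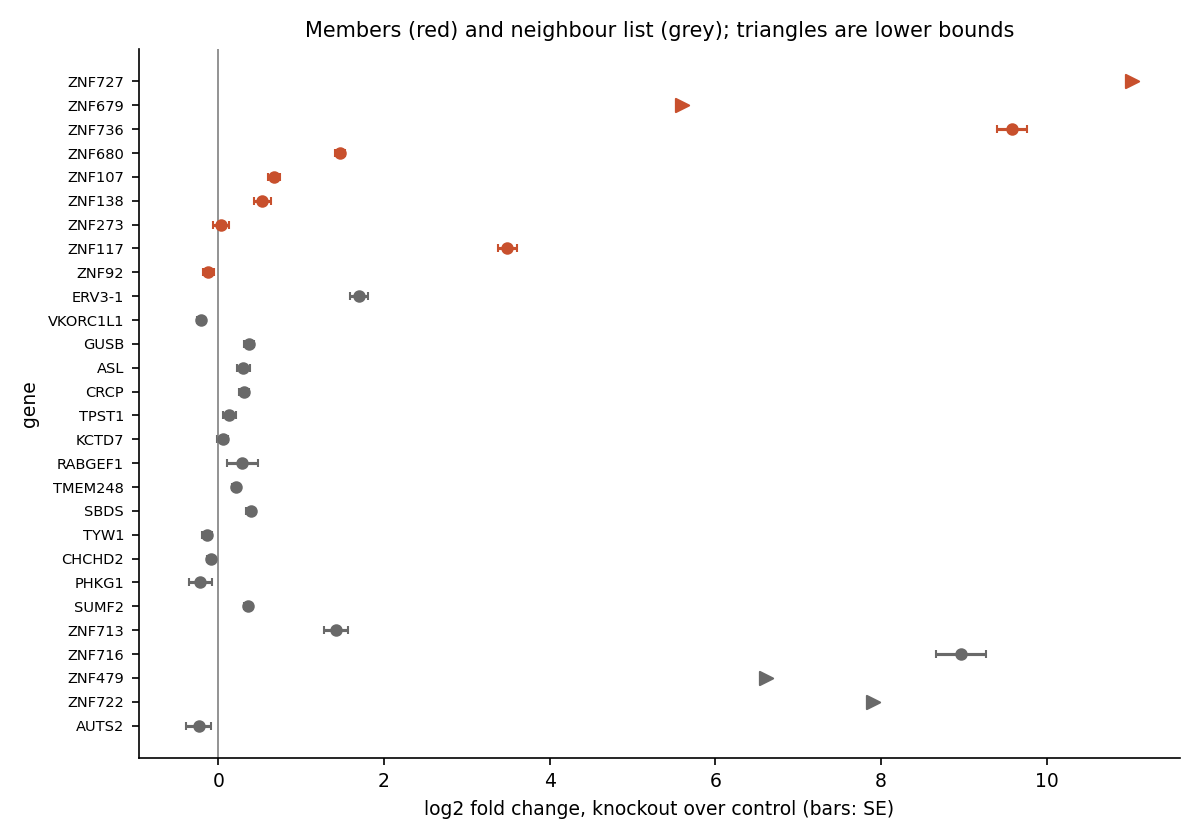
Log2 fold change of KO over control for the 9 tested members (red) and the 19 tested genes of the neighbour list (grey), with bars of 1 SE. Triangles are lower bounds for genes with 0 control counts. ZNF727 has a lower bound of 11.04. Many genes of this list are not close to the cluster. Among them ZNF716 lies at 8.97 and ZNF713 at 1.42. ERV3-1, within the cluster, lies at 1.70. ZNF722 and ZNF479 are shown by their lower bounds, and no other gene of the list lies beyond 0.39 in either direction.

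A pathway list of 19 genes joined SETDB1 and its partners with other genes of repressed chromatin, such as EHMT1, SUV39H1 and DNMT1. Of the 19, 8 (42.1%) were higher, 9 (47.4%) lower and 2 did not pass the test. Over all genes tested, 32.8% were higher and 30% lower. The 9 lower genes were SETDB1, CBX1, CBX3, EHMT2, SUV39H1, SUV39H2, DNMT1, UHRF1 and HELLS. The median log2 fold change was -0.06. ATF7IP, the partner that stabilises SETDB1 in the nucleus, rose from 65.2 ± 3.28 to 302 ± 12.7 CPM (SD, n = 3; log2 2.21, SE 0.048, edgeR adjusted p 2e-24). ZNF274 rose from 19.7 ± 0.688 to 84.5 ± 0.796 CPM (log2 2.10, SE 0.054, edgeR adjusted p 8e-23). ATF7IP2 rose from 9.95 ± 0.588 to 15.3 ± 1.17 CPM (log2 0.61, edgeR adjusted p 2.2e-07). HELLS, a chromatin remodeller linked to DNA methylation, fell from 152 ± 1.81 to 106 ± 5.87 CPM (log2 -0.53, edgeR adjusted p 5.7e-11). The transcript of TRIM28 itself was at 599 ± 39.8 CPM in control and 575 ± 26.8 CPM in KO and did not pass the test.

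H3K9me3 covered most of the region in control cells and little of it in KO cells. The control list had 70 peaks there, covering 899 kb or 59.9% of the region, against 13.9% of the rest of chromosome 7. The KO list had 14 peaks covering 51.0 kb, or 3.40% of the region, against 22.3% of the rest of the chromosome. The covered length was thus 17.6 times larger in control in the region, while over the whole lists the KO length was 1.81 times the control length. Each genotype has a single peak list per target, so these values carry no replicate error, and the 95% Wilson intervals given with shares cover counting error only.

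Of the 70 control H3K9me3 peaks, 10 (14.3%, 7.95% to 24.3%) had a partner in KO, a peak sharing 1 bp or more, against 40% over the whole list. The other 85.7% had no KO peak, where the background over all control peaks was 60%. The 3 widest control peaks, at chr7:63954317-64028457, chr7:64038449-64105301 and chr7:64127294-64177718, were 74.1, 66.9 and 50.4 kb wide, and none had a partner. Of the 14 KO peaks, 13 (92.9%, 68.5% to 98.7%) lay on a control peak, against 43.7% over the whole KO list, and 1 did not, where the background was 56.3%. The widest of them were chr7:63592865-63608173, chr7:63846766-63858735 and chr7:63870431-63874742, of 15.3, 12 and 4.31 kb, all in the first 4 of the region's 15 bins of 100 kb. Positions of genes on GRCh37 were not used here, so no peak is assigned to a gene.

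H3K27me3, the repressive mark of Polycomb complexes, went the other way. It had 14 peaks over 28.5 kb in control and 59 peaks over 303 kb in KO, 1.90% and 20.2% of the region, whereas the rest of the chromosome held 15.3% and 10.6%. The KO length was 10.6 times the control length in the region and 0.768 times over the whole lists. Of the control peaks, 12 of 14 (85.7%, 60.1% to 96.0%) had a KO partner, against 53.0% over the whole list. Of the KO peaks, only 12 of 59 (20.3%, 12% to 32.3%) had a control partner, so 79.7% were found in KO alone, where the background was 29%. The 3 widest KO peaks, chr7:63865209-63904120, chr7:63911120-63936310 and chr7:63648398-63667298, were 38.9, 25.2 and 18.9 kb wide and had no control partner. The widest control peaks were chr7:64872901-64878260, chr7:64352590-64357596 and chr7:64889546-64893015, none above 5.36 kb.

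The marks of active promoters and enhancers were also found at more places in KO. H3K27ac had 10 control peaks over 11 kb and 34 KO peaks over 57.1 kb, 5.20 times the length, against 1.10 times over the whole lists. H3K4me3 had 16 control peaks over 26.6 kb and 52 KO peaks over 91.8 kb, 3.45 times the length, against 1.15 times. Every control peak of either mark in the region had a KO partner (10 of 10, interval 72.2% to 100%, and 16 of 16, interval 80.6% to 100%), and the whole-list shares of 73.1% and 85.1% lie within these intervals. Only 9 of 34 KO H3K27ac peaks (26.5%, 14.6% to 43.1%) and 15 of 52 KO H3K4me3 peaks (28.8%, 18.3% to 42.3%) had a control partner. Peaks found in KO alone were 73.5% of the H3K27ac and 71.2% of the H3K4me3 peaks, where the backgrounds were 31.3% and 30.2%.

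Broad active peaks appeared in places with no control peak. The widest KO H3K4me3 peaks were chr7:63505173-63511900 (6.73 kb), chr7:64018289-64024372 (6.08 kb) and chr7:63512580-63518284 (5.71 kb), and the first and the last had no control partner. The H3K27ac list of KO had its widest peaks at chr7:64017962-64024198 (6.24 kb, with a partner), chr7:63546477-63550990 (4.51 kb) and chr7:63505633-63509337 (3.71 kb). The widest H3K4me3 and H3K27ac peaks of control were 3.06 kb (chr7:64838248-64841304) and 1.56 kb (chr7:64254265-64255821) wide.

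**Figure D3:**
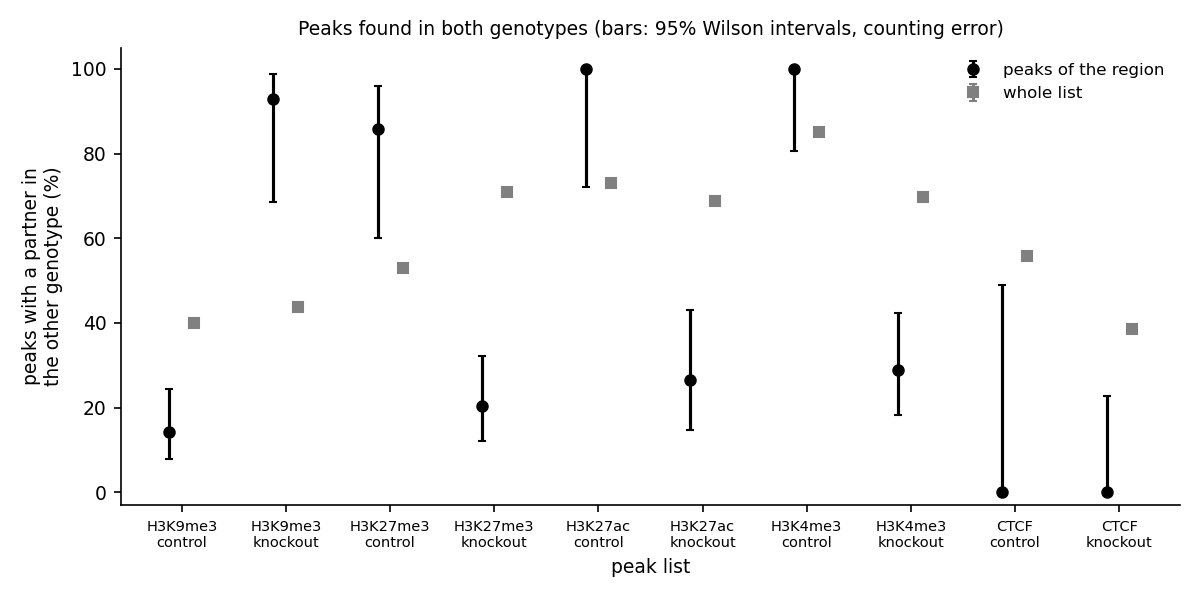
Share of the region's peaks that overlap a peak of the other genotype, in percent, for each of the 10 peak lists (black points, bars are 95% Wilson intervals) and the same share over the whole list (grey squares). KO peaks of H3K27me3, H3K27ac and H3K4me3 had a partner in 20.3% to 28.8% of cases in the region and in 68.7% to 71.0% over the whole lists.

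Nearly every KO-only peak of these marks lay where control cells had H3K9me3. This held for 46 of 47 H3K27me3 peaks (97.9%, 88.9% to 99.6%), 24 of 25 H3K27ac peaks (96.0%, 80.5% to 99.3%) and 36 of 37 H3K4me3 peaks (97.3%, 86.2% to 99.5%). Over the whole lists the shares were 21.0%, 16.6% and 20.2%. A high share is partly built in. Control H3K9me3 covered 59.9% of the region and 62.7% to 97.4% of each of its first 10 bins of 100 kb. Most KO-only peaks of these marks lay in those bins, and an overlap of 1 bp was enough. By length, 79.9% of all KO H3K27me3, 81.4% of H3K27ac and 76.3% of H3K4me3 in the region lay inside control H3K9me3. Among KO peaks that control cells also had, 9 of 12 H3K27me3, 5 of 9 H3K27ac and 10 of 15 H3K4me3 peaks lay on control H3K9me3 (75.0%, 55.6% and 66.7%). Over the whole lists these shares were 48.0%, 12.7% and 9.67%.

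H3K27ac and the Polycomb mark did not share places in KO. None of the 34 KO H3K27ac peaks overlapped a KO H3K27me3 peak, as did 0.453% over the whole list, so this separation is not particular to the region. H3K27ac peaks lay on H3K4me3 in 27 of 34 cases (79.4%, against 70.3% over the whole list), and 12 of 52 H3K4me3 peaks overlapped H3K27me3 (23.1%, against 7.60% over the whole list). All 14 KO H3K9me3 peaks overlapped KO H3K27me3, over 49.2 of their 51.0 kb, against 33.7% of KO H3K9me3 peaks over the whole list.

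CTCF, the DNA-binding protein of chromatin loop anchors, was found at different places in the genotypes. Control cells had 4 peaks, at chr7:63852175-63852507, chr7:63917989-63918230, chr7:64380754-64381032 and chr7:64441452-64441657, and none had a KO partner (0 of 4, interval 0% to 49.0%). KO cells had 13 peaks and none had a control partner (0 of 13, interval 0% to 22.8%), where 61.4% of KO CTCF peaks had none over the whole list and 44.1% of control peaks had none. Of the 13 KO peaks, 11 (84.6%, 57.8% to 95.7%) lay on control H3K9me3, against 15.9% of KO-only CTCF peaks over the whole list, and so did the 4 control peaks. The wide cover of the region by control H3K9me3 builds in part of the 84.6% too. A group of 5 KO peaks lay within 17.7 kb, from 64079430 to 64097137. The widest KO peaks were chr7:63643386-63643906, chr7:64772602-64773056 and chr7:64348436-64348802.

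Along the region the marks changed unevenly. In the first 10 bins of 100 kb, from 63500001 to 64500000, control H3K9me3 covered 62.7% to 97.4% of each bin, and in the last 5 bins 0.344% to 47.8%. KO coverage was at most 21.5% in any bin. H3K27me3 in KO reached 72.2% of the bin from 63600001, 55.6% of that from 63800001 and 42.1% of that from 63900001. H3K27ac was at 0% in both of the first 2 of these and highest in the bins from 64000001 (16.3%) and 63500001 (12.3%). H3K9me3 coverage was at least 10 percentage points lower in KO in 11 of 15 bins (73.3%), where 20.5% of all bins were. Only bins with at least 10% control cover can fall so far, and in the region these were the same 11 bins. How many of all bins had that much control cover was not counted. H3K27me3 was at least 10 points higher in 8 of 15 bins, against 6.83% of all bins. With a limit of 1 point, H3K27ac was higher in 6 of 15 bins and H3K4me3 in 8 of 15, against 22.4% and 22.9% of all bins.

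**Figure D4:**
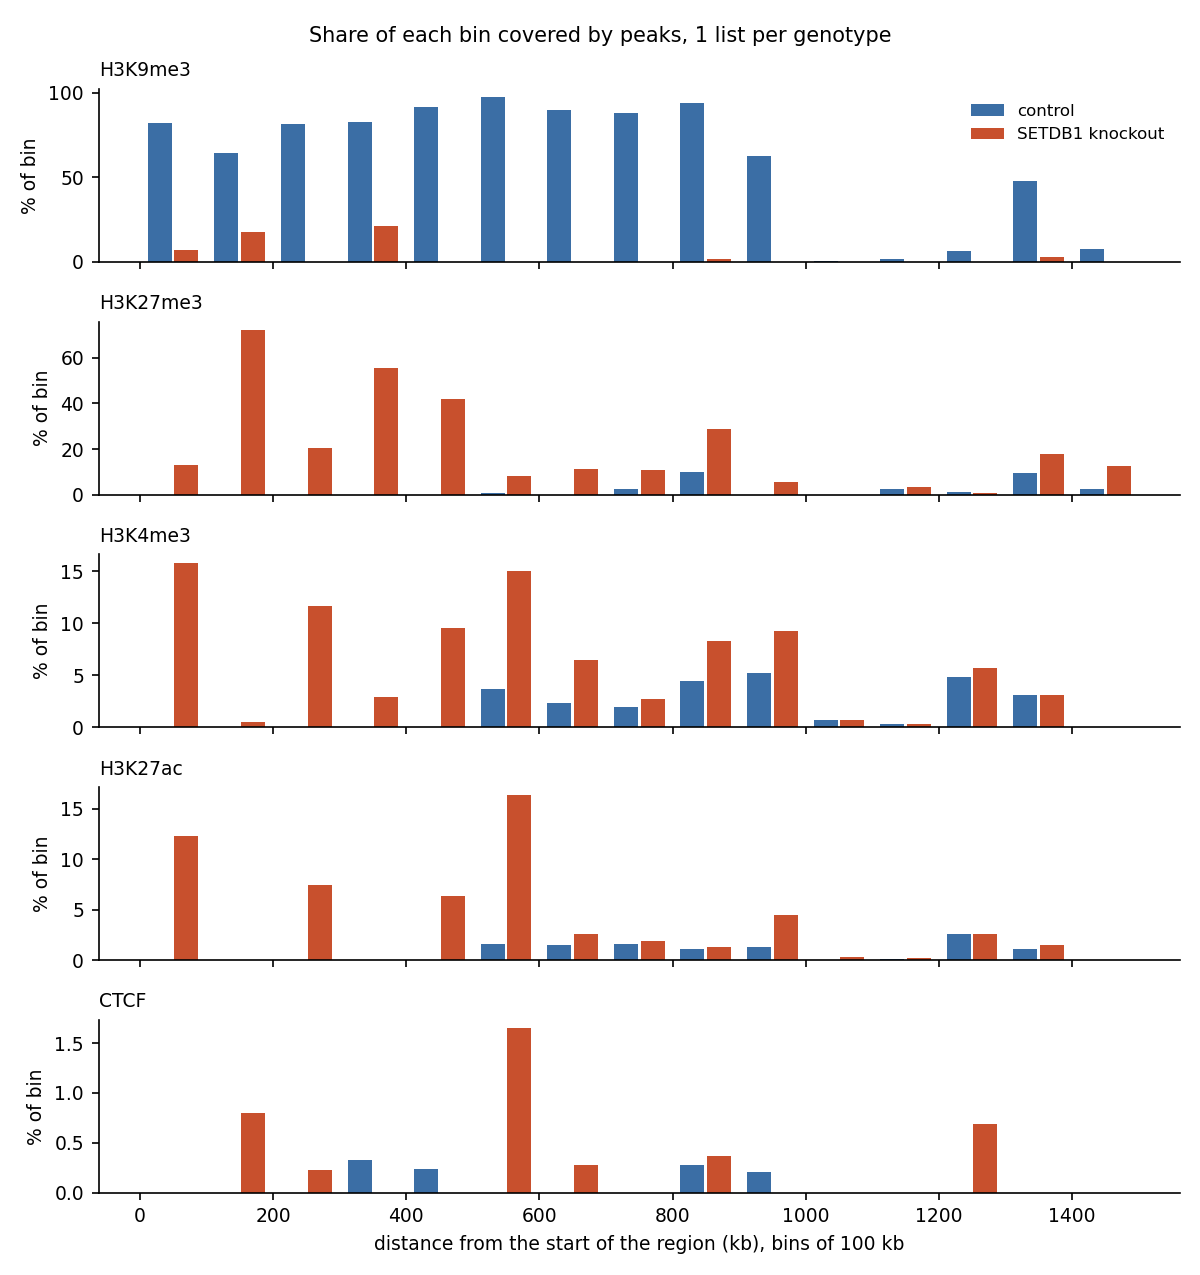
Share of each 100 kb bin covered by peaks, in percent, against distance from the start of the region in kb, for the 5 ChIP-seq targets in control (blue) and KO (red), 1 peak list each. Each panel has its own scale from 0. Control H3K9me3 fills the first 10 bins to between 62.7% and 97.4%, and the 2 bins with the most KO H3K27me3, 72.2% and 55.6%, hold no KO H3K27ac peak.

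The Hi-C compartment signal is a score per 100 kb bin whose sign separates open from closed chromatin. Positive bins were taken as the open side, since control H3K27ac peaks covered 6.94% of positive and 0.432% of negative bins. This rests on the control signal over the whole genome. The side of the sign in KO, or on chromosome 7 alone, was not tested. The region has 15 bins, of which only 5 had a value in all 4 replicates. The other 10 were not tested, and 12.8% of bins over the genome had no test for the same reason. Of the 5, 4 were negative in both control replicates and positive in both KO replicates, and the last one was positive in all 4 and higher in KO.

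From 63900001 to 64000000 the signal was -0.68 and -0.66 in control and 1.16 and 1.17 in KO, a difference of 1.83 (SE 0.041, limma adjusted p 3.3e-09). The next bin went from -0.52 and -0.49 to 1.19 and 1.2, a difference of 1.70, and the one after it from -0.30 and -0.44 to 1.13 and 1.2, a difference of 1.54. These bins held the widest control H3K9me3 peaks. In the bin from 64300001 to 64400000 the values were -0.26 and -0.20 in control and 1.30 and 1.21 in KO (difference 1.48). In the bin from 64700001 to 64800000, where control H3K9me3 covered 6.69%, they were 0.29 and 0.30 in control and 1.29 and 1.39 in KO, a difference of 1.04. Bins with values in 3 replicates, from 63500001 and from 64200001, were also negative in control and positive in KO.

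All 5 bins were higher in KO in limma's test, with adjusted p from 3.3e-09 to 3.8e-08, where 21.5% of the 26503 bins tested were higher and the median difference was -0.04. The mean over the 5 bins was -0.30 ± 0.0042 in control and 1.22 ± 0.015 in KO (SD, n = 2), a difference of 1.52. An exact permutation test of this mean gave a two-sided p of 0.33, the smallest that 2 against 2 replicates allow.

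**Figure D5:**
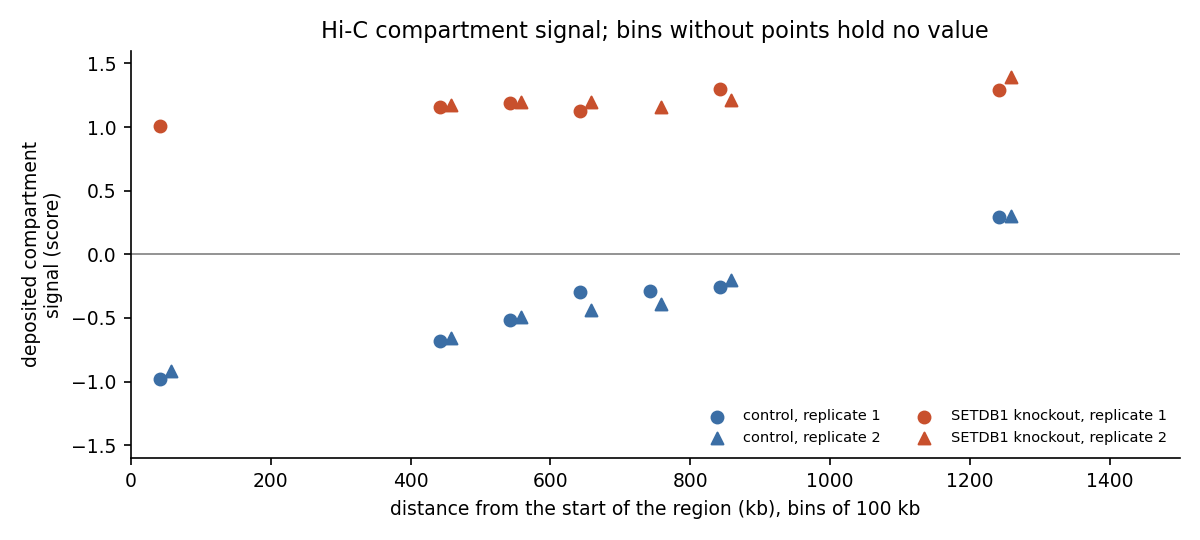
Deposited compartment signal (score) of each Hi-C replicate in the 100 kb bins of the region, against distance from its start in kb, with 2 replicates per genotype and a line at 0. Bins without points hold no value. KO values lie between 1.01 and 1.39, and control values run from -0.98 to 0.30.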

How the data were processed

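Values were counts per gene, deposited for 6 stranded total RNA libraries, peak positions per target and genotype, and a compartment score per 100 kb bin and replicate. The submitters' processing notes name hg19, STAR 2.6.1c, edgeR 3.30.0, Bowtie2 2.2.3, SAMtools 1.5, Picard and MACS2, with no roles. The counter, its strand setting, the treatment of shared reads, the peak threshold, any pooling of libraries and the compartment method are not given in the sources used here. The deposited peak lists held no peak score. Input libraries were not used here, and 0 per-sample columns went unmapped.

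Symbols paired with 58642 of 62486 IDs (93.8%). Counts were analysed with edgeR 4.0.16 in R 4.3.3 (TMM, filterByExpr, robust quasi-likelihood test, genotype as the only term) over the whole table, with Benjamini-Hochberg adjustment at 0.05, and compartment scores with limma 3.58.1 over all bins with 4 values. Both fits were tested on simulated data. Peaks were compared in Python 3.11.15 (numpy 2.4.6, pandas 2.3.3) with an overlap of at least 1 bp. No pair of RNA-seq libraries agreed within sampling noise.

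The members, the gene lists and the tests were chosen with earlier results of these data known. Named were SETDB1, the members, the 5 largest changes past the threshold in the pathway and neighbour lists, the 3 genes nearest to ZNF727 (log2 CPM, prior count 2), the bins and the 3 widest peaks of each list. TRIM28, VKORC1L1, TYW1, GUSB, SBDS, the lower genes of the pathway list, a CTCF group and the limits on bin coverage were picked after their values were seen. So were the markers given by name: KRT8, AKR1B10, AKR1C1, NQO1, CDH5, COL1A1, LUM, CD3E, COL1A2 and DCN. Alternatives were other scalings (upper quartile, library size only), DESeq2 1.42.0, no filter on low counts, a replicate block, leaving out each replicate, scaled compartment columns, a reciprocal overlap of 50%, the wider 50% of each peak list and peaks wholly inside the region.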

Additional observations from a re-analysis of the deposited data

How the results depend on the processing

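Of 322 values under alternatives, 289 kept their side of the threshold or their limits, 29 moved, 2 newly passed the threshold and 2 reversed. The cause was not tested. Some of the 289 could not change. A reciprocal overlap leaves peak numbers and covered lengths as they are, and cannot give CTCF peaks the partners they lacked. Taking only peaks wholly inside the region changed the control H3K9me3 values alone. The 289 thus overstate how stable the results are. Leaving out any 1 RNA-seq library kept 7 members higher in KO, with 0 to 1 lower. The 1 was ZNF92, at -0.17 without KO replicate 1, and under upper quartile scaling 1 member was lower, again ZNF92, at -0.15. As the RNA contrast chose the cluster, nothing is read from these counts. ZNF273 ranged from 0 (just under it, without control replicate 2) to 0.10 when a library was left out, and was -0.01 under upper quartile scaling. The neighbour list had 1 lower gene under library size only, under DESeq2 and with no filter on low counts, and 1 to 3 when a library was left out, the 1 being without KO replicate 3. Pathway genes lower in KO numbered 6 to 10. The mean compartment difference of the region was 2.08 with scaled columns and 1.51 to 1.53 without any 1 replicate, and the 5 bins were called each time.

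With a reciprocal overlap of 50%, 4.29% of control and 21.4% of KO H3K9me3 peaks and 57.1% of control H3K27me3 peaks of the region had a partner. In the wider 50% of each peak list, H3K9me3 had 2 KO peaks over 27.3 kb, with partners for 5.26% of control and 100% of KO peaks. H3K27me3 then had 3 control peaks over 13.8 kb, 100% of them with a partner, and 33 KO peaks, 9.09% with one. H3K27ac had 2 control peaks over 3.03 kb and 16 KO peaks, 12.5% with a partner. H3K4me3 had 29 KO peaks. CTCF had 2 control peaks over 0.612 kb and 5 KO peaks over 2.0 kb. At 20 points in place of 10, a limit added after the data were seen, H3K27me3 was higher in 4 bins of the region.

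A fit with the replicate number as a block gave 7 members higher and 0 lower, 8 and 9 pathway genes, 11 and 3 neighbours, and 5 compartment bins. Same-numbered RNA-seq libraries deviated together at correlations of 0.111, 0.0262 and 0.0351 and Hi-C replicates at -0.00257. With so few replicates, these values cannot show whether same-numbered samples share more than a number. Shared TAD boundaries could not be recomputed with another tolerance, as the region holds none. Genes with 0 to 3 control counts have folds limited by depth, and each peak value rests on 1 list per genotype.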

Other observations

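No topologically associating domain of either deposited list reached the region. The lists held 6118 domains in control and 6283 in KO, and in both the last domain before the cluster ended at 55660000 on chromosome 7 and the next began at 66800001, a gap of 11.1 Mb. Whether domains of the cluster differed between the genotypes was therefore not examined.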
